A study of Mus musculus with 12 samples.

Results

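The 4 Hox gene clusters of the mouse were described by the 424 probes of a CpG island array that lie within a fixed window around each cluster, of 88737 non-control probes on the array. HoxA on chromosome 6 held 132 probes between 52108264 and 52211243 of genome build mm9, HoxB on chromosome 11 held 106 between 96064457 and 96228419, HoxC on chromosome 15 held 80 between 102751860 and 102866437, and HoxD on chromosome 2 held 106 between 74495650 and 74601954. The probes of a window were taken by position alone, whereas the clusters themselves were chosen with earlier results of these data known. They are 45 to 60 bases long and, joined where the gap between neighbours was at most 1000 bp, formed 65 loci (18 in HoxA, 16 in HoxB, 14 in HoxC and 17 in HoxD) of 2 to 13 probes and 123 to 2408 bp. The array files give no gene for a probe and the annotation at hand is on another build, so the windows were taken as given and loci were numbered within each cluster from the lower coordinate.

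The samples were 12 arrays, 3 replicates of each of 4 embryonic stem (ES) cell lines. All 4 lines share the nuclear genome of the ES cell line CC9.3.1, which came from a 129SvEv-Gpi1c(129S6) embryo, and differ in their mitochondrial DNA (mtDNA): CC9mus carries the Mus musculus type, CC9spretus that of M. spretus, CC9dunni that of M. terricolor and CC9pahari that of M. pahari. Each line was made by joining cytoplasts of the species to CC9.3.1 cells that had lost their own mtDNA, CC9mus included, each name stands for 1 cell line, and CC9mus is the control because its mtDNA is that of the parental line. Cells were grown on mitomycin C-treated feeder cells with LIF and kept for 48 h without feeder cells before use. Methylated DNA was collected with an antibody to 5-methylcytosine (MeDIP), labelled with Cy5 and hybridised against input DNA of the same cells in Cy3, with the same dyes on every array. Each value below is the log2 ratio of the immunoprecipitated (IP) signal over the input signal, with the median of the array set to 0, so that a value of 0 is that of the median probe of the array and not the absence of methylation.

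Hox genes encode homeodomain transcription factors that give cells their position along the body axis. Within a cluster they stand in a row in the order of their expression, from the group 1 end, which is used early and towards the head, to the group 13 end, which is used late and towards the tail. In ES cells the clusters are largely silent, are known as CpG-rich chromatin held by Polycomb proteins, and their CpG islands carry little DNA methylation as a rule. In the RefSeq gene order of assembly GRCm38.p6, Hoxa13 lies at the higher coordinate of HoxA, whereas in HoxB, HoxC and HoxD the group 13 gene lies at the lower coordinate and Hoxb1, Hoxc4 and Hoxd1 at the higher.

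MeDIP enriches a fragment by the methylated CpG sites that it holds, and the number of CpG sites differs widely among Hox promoters. Of the 39 genes of the clusters, 22 had an entry among the RefSeq promoters of build GRCm38.p6, with 24 windows of 300 bases in all. Most of these windows were of HoxA and HoxD, whereas HoxB was present with Hoxb1, Hoxb4 and Hoxb8 and HoxC with Hoxc4 only. The dinucleotide CG, which reads the same on both strands, occurred 4 to 45 times in the 24 windows. The median was 14.5, compared with a median of 7 in all 32851 RefSeq promoter windows. At least 9 such sites were present in 83.3% of the Hox windows and in 45.8% of all windows. The richest promoters, those of Hoxa13 and Hoxd13, are shown with one of the poorest, that of Hoxd4, to give the range of CpG content behind the signal. Hoxa13 and Hoxd13 pattern the limbs and the genital region, and Hoxd4 acts in the hindbrain and upper spine. The 250 bases before the start of each gene are given 5′ to 3′ on the strand of the gene, with each CG in capitals, from chr6:52260881-52261130 (minus strand, 35 sites), chr2:74667975-74668224 (plus strand, 31 sites) and chr2:74721728-74721977 (plus strand, 3 sites) of GRCm38.p6, and they were not aligned to the probes.
Hoxa13: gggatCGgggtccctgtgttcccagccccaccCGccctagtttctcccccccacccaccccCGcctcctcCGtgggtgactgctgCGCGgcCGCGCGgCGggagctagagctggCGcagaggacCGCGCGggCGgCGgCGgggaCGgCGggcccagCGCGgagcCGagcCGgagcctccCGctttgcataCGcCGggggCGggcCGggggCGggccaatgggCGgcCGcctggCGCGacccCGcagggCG
Hoxd13: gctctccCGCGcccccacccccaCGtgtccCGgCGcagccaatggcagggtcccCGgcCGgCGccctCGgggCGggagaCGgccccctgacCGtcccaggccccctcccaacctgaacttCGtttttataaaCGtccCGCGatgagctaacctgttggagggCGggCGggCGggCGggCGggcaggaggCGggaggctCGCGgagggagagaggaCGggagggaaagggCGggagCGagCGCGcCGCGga
Hoxd4: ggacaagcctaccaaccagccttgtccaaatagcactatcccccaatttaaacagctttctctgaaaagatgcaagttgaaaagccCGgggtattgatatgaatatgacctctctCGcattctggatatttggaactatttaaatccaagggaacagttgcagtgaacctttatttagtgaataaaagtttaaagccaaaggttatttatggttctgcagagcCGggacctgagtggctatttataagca

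The 3 CC9mus arrays differed from one another more than those of any other line. In CC9mus, the log2 ratios of the 424 Hox probes had an SD of 0.48, 1.64 and 1.67 on the 3 arrays in order of replicate, compared with 0.81 to 1.1 elsewhere. The same order was seen over all probes, where the SD was 0.53, 1.85 and 2.01 in CC9mus and 1.09 to 1.38 elsewhere. A probe was called detected where the scanner software marked its IP signal as well above background, which held for 99.1%, 84.7% and 94.8% of the Hox probes on the CC9mus arrays and for 76.2% to 96.5% on the others. The arrays of the divergent lines were scanned in an earlier (replicates 1 and 2) and a later period (replicate 3), and all 3 CC9mus arrays in the later one. Within the later period the CC9mus arrays were scanned on a day of their own and lay on slides of their own, so that CC9mus shared no scan day and no slide with another line, and line, slide and scan day cannot be told apart in any comparison with CC9mus. Results on CC9mus are also given within the later period and on arrays scaled to an equal spread, which does not remove this limit, and the part of spread and scan period in them was not tested.

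The Hox clusters lay close to the median of the array in the 3 divergent lines. For HoxA, the median log2 ratio of the probes was −0.31, −0.33 and 0.01 on the CC9spretus arrays, −0.21, −0.27 and −0.04 on the CC9dunni arrays and −0.35, −0.43 and −0.10 on the CC9pahari arrays. Over the same 9 arrays the median ranged from −0.15 to 0.33 in HoxB, from −0.32 to 0.04 in HoxC and from −0.11 to 0.21 in HoxD. The mean of the 9 medians was −0.23 ± 0.15 (SD) in HoxA, 0.02 ± 0.14 in HoxB, −0.15 ± 0.14 in HoxC and 0.03 ± 0.11 in HoxD. Set against each other on the same array, HoxB and HoxD were each above HoxA on 9 of 9 arrays, by 0.134 to 0.364 and by 0.0709 to 0.395, HoxC was above HoxA on 8 of 9 and HoxD above HoxB on 5 of 9. The order was not tested.

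In CC9mus the medians were spread over a wide range. HoxA had −0.13, 0.55 and 1.14 on replicates 1, 2 and 3, HoxB −0.09, 0.71 and 1.38, HoxC −0.03, 0.74 and 1.85, and HoxD 0.13, 1.01 and 2.06. Replicates 2 and 3 lay above all 9 other arrays in each cluster, and replicate 1 lay within the range of those arrays in each cluster. The mean for the line was 0.52 ± 0.64 (SD, n = 3) in HoxA, 0.67 ± 0.74 in HoxB, 0.85 ± 0.95 in HoxC and 1.07 ± 0.96 in HoxD. On arrays of equal spread it was 0.19 ± 0.44, 0.29 ± 0.45, 0.41 ± 0.50 and 0.61 ± 0.39, compared with −0.24 ± 0.16, 0.03 ± 0.16, −0.16 ± 0.15 and 0.04 ± 0.15 (SD, n = 9) for the other arrays. Probes of loci over 3 kb elsewhere in the genome, 2470 in number, had a median of 0.26 ± 0.33 in CC9mus and −0.04 ± 0.04 on the other arrays, and all 424 Hox probes 0.80 ± 0.89 and −0.09 ± 0.11.

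**Figure D1:**
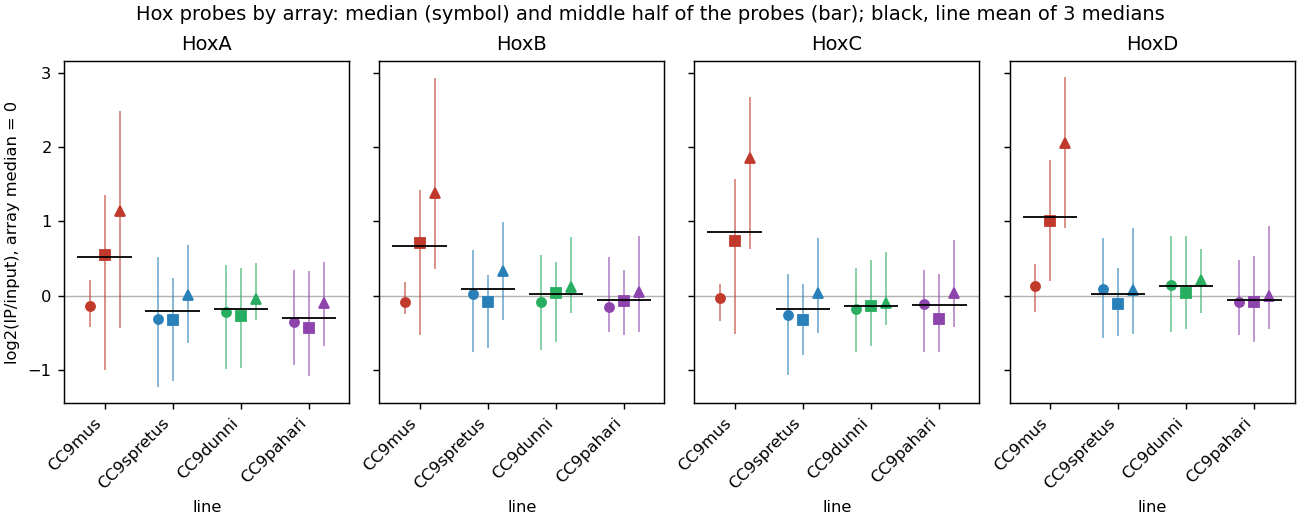
Median log2(IP/input) of the probes of each Hox cluster on each of the 12 arrays (circle, square and triangle for replicates 1, 2 and 3), with the interquartile range of the probes as a bar and the mean of the 3 medians of a line in black. CC9mus replicates 2 and 3 lie above all other arrays in each panel, from 0.55 in HoxA to 2.06 in HoxD, and CC9mus replicate 1 lies between −0.13 and 0.13 with the other lines.

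The input and IP channels were also read apart, each as the deviation of the centred log2 signal from the probe's own average, with the median of these deviations over the Hox probes. The input channel lay between −0.12 and 0.15 on every array. For the IP channel, the values were −0.08, 0.60 and 1.34 on the CC9mus arrays and −0.31 to −0.03 on the others. Outside the HoxA window, the input of the probes of chromosome 6 was shifted by 0.29 to 0.34 on the CC9mus arrays and by −0.14 to −0.07 on the others. The HoxA probes did not carry this shift, with input values of −0.04 to 0.07 on the CC9mus arrays and −0.11 to 0.07 on the others.

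Highly enriched Hox probes were few in the divergent lines. The study's methods set a log2 ratio of 2 as a limit between samples and add a Z-score cutoff. Here the limit of 2 was set on the line mean of the centred IP/input ratio. A line mean above 2 was reached by 4 Hox probes in CC9spretus (0.943%, against 5.16% of all probes). In CC9dunni 5 reached it (1.18%, against 5.32%) and in CC9pahari 3 (0.708%, against 4.71%). In CC9mus it was reached by 36 (8.49%, against 9.39%), of which 11 were in HoxA, 8 in HoxB, 4 in HoxC and 13 in HoxD. A line mean below −2 was reached by 4 Hox probes in CC9mus (0.943%, against 3.25%), 4 in CC9spretus (0.943%, against 1.08%), 2 in CC9dunni (0.472%, against 0.586%) and 0 in CC9pahari (0.124% of all probes). In all, 37 Hox probes passed 2 in at least 1 line (8.73%, against 10.8% of all probes), 10 passed −2 (2.36%, against 4.47%) and 3 passed 2 in all 4 lines (0.708%, against 3.58%).

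Most Hox probes had no strong signal in either direction. The mean over the 12 arrays lay within 1 of the array median for 330 of the 424 probes (77.8%, against 70.9% of all probes). Its median was 0.12 and its range −1.93 to 4.37, and 80% of the Hox probes lay between −0.87 and 1.19, compared with −1.09 and 1.37 for all probes. Neighbouring probes of a locus were only loosely alike, with a Pearson correlation of 0.40 over 359 neighbouring pairs, which share their arrays. The SD of the probes within a locus was 0.68 and that of the locus means 0.62. Across the 424 probes, the line means of the divergent lines correlated with one another at 0.86 to 0.92 and with those of CC9mus at 0.57 to 0.63.

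Along the clusters, 59 of the 65 loci had a mean over the 12 arrays between −1 and 1, and 6 stood above 1. The highest of all was locus 9 of HoxB (chr11:96175762-96176362), 601 bp with 5 probes in the segment of the cluster towards Hoxb1. Its mean was 0.82, 2.73 and 3.62 on the CC9mus arrays, 2.41, 1.34 and 2.91 on the CC9spretus arrays, 1.62, 1.92 and 2.27 on the CC9dunni arrays and 1.89, 1.92 and 2.76 on the CC9pahari arrays. All 12 arrays were above 0 and the lines overlapped. CC9mus differed from the other lines by 0.27 ± 0.51 (SE; limma, adjusted p = 0.726).

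The signal of this HoxB locus was graded from one side to the other. Its 5 probes, in order of coordinate, had means over the 12 arrays of 4.37, 3.09, 1.62, 1.38 and 0.45. The first probe (chr11:96175762-96175817) had the highest mean of all Hox probes, with 2.36, 5.80 and 5.19 on the CC9mus arrays, 3.80, 3.24 and 5.59 on CC9spretus, 3.80, 3.78 and 5.04 on CC9dunni and 3.80, 3.84 and 6.15 on CC9pahari. It was above 2 on every array. The fifth probe ranged from −0.92 to 1.40.

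Locus 13 of HoxC (chr15:102863049-102863445), with 4 probes near the Hoxc4 end, was second. Its mean was 2.25 ± 1.33 (SD, n = 3) in CC9mus, 1.82 ± 1.01 in CC9spretus, 1.97 ± 0.85 in CC9dunni and 1.40 ± 0.80 in CC9pahari, and the lines did not differ beyond this spread. All 12 arrays were above 0, from 0.72 on CC9pahari replicate 2 to 3.32 on CC9mus replicate 2. The probe at chr15:102863318-102863370 had the highest mean in HoxC, 2.59, and was the only Hox probe outside locus 9 of HoxB with a mean above 2 in all 4 lines.

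Locus 3 of HoxB (chr11:96130826-96131211, 3 probes) had a mean of 1.65, 4.59 and 2.87 on the CC9mus arrays and from −0.14 to 2.67, with a median of 0.75, on the other 9. Of its 27 values on those 9 arrays, 17 were detected. The 3 highest loci of HoxB were completed by locus 2 (chr11:96112837-96113337), with 2.05 ± 1.86 in CC9mus and 0.36 to 0.51 as means of the other lines. In HoxD the highest were locus 13 (chr2:74578542-74578824), locus 3 (chr2:74513187-74513658) and locus 16 (chr2:74590901-74591562), with means over the 12 arrays of 1.47, 1.25 and 0.86. Locus 13 of HoxD was above 0 on all 12 arrays, with line means of 1.87 ± 1.60 in CC9mus, 1.18 ± 0.57 in CC9spretus, 1.72 ± 0.28 in CC9dunni and 1.11 ± 0.43 in CC9pahari. The highest of HoxA were locus 7 (chr6:52156622-52156744, 1.46), locus 2 (chr6:52118892-52119112, 0.72) and locus 12 (chr6:52179006-52180942, 0.63). Locus 12 had 1.37 ± 1.30 in CC9mus and 0.38 over the 9 arrays of the divergent lines, where locus 18 had 0.40, so that its place among the first 3 rested on CC9mus. HoxC added locus 12 (chr15:102857878-102858291, 0.90) and locus 2 (chr15:102757568-102758011, 0.82).

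Low loci were found in each cluster. In HoxA, locus 4 (chr6:52125538-52127579, 6 probes) had a mean of −0.22, −0.76 and −0.19 on the CC9mus arrays and of −1.44 to −0.56, with a median of −0.85, on the other 9. All 12 arrays were below 0 and the groups overlapped. The mean over the 12 arrays was −0.79 at this locus and −0.70 at locus 14 (chr6:52190240-52190907). In the other clusters, the 3 loci with the lowest mean over the 12 arrays were locus 8 (chr15:102812107-102812794, −0.47), locus 7 (chr15:102796847-102798164, −0.45) and locus 11 (chr15:102844615-102845882, −0.37) of HoxC, locus 15 (chr2:74587859-74588229, −0.44), locus 6 (chr2:74525651-74526090, −0.35) and locus 1 (chr2:74495650-74497968, −0.20) of HoxD, and locus 14 (chr11:96207239-96207581, −0.25), locus 6 (chr11:96147947-96148822, −0.18) and locus 8 (chr11:96164398-96166610, −0.03) of HoxB. This mean pools lines that differed at several of these loci. The 3 HoxD loci had means of −0.75, −0.67 and −0.73 over the 9 arrays of the divergent lines and of 0.50 ± 0.99, 0.61 ± 1.32 and 1.38 ± 1.45 in CC9mus. Locus 6 of HoxB had −0.56 and 0.94 ± 1.33, and was lower in the divergent lines than locus 14, which had −0.13 there and −0.59 ± 0.62 in CC9mus.

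In HoxA, HoxB and HoxC, the single probe with the lowest mean was close to the limit of the IP signal. In HoxB it was chr11:96180067-96180126, at −1.93, detected on 2 of 3 CC9mus arrays and 6 of 9 others. In HoxA it was chr6:52125538-52125592, at −1.70, with 1 of 3 and 5 of 9, and in HoxC chr15:102797076-102797125, at −1.61, with 1 of 3 and 7 of 9. The lowest of HoxD, chr2:74520271-74520324, at −1.32, was detected on all 12 arrays. Where a probe is not detected, the ratio only bounds the level from above. The highest probes of HoxA (chr6:52210288-52210332, 1.79) and HoxD (chr2:74536395-74536439, 1.66) were detected on every array, and their CC9mus values of 1.33, 4.15 and 2.71 and of 0.84, 3.09 and 2.34 were not all beyond the ranges of the other lines, 0.67 to 2.17 and 0.85 to 2.01.

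**Figure D2:**
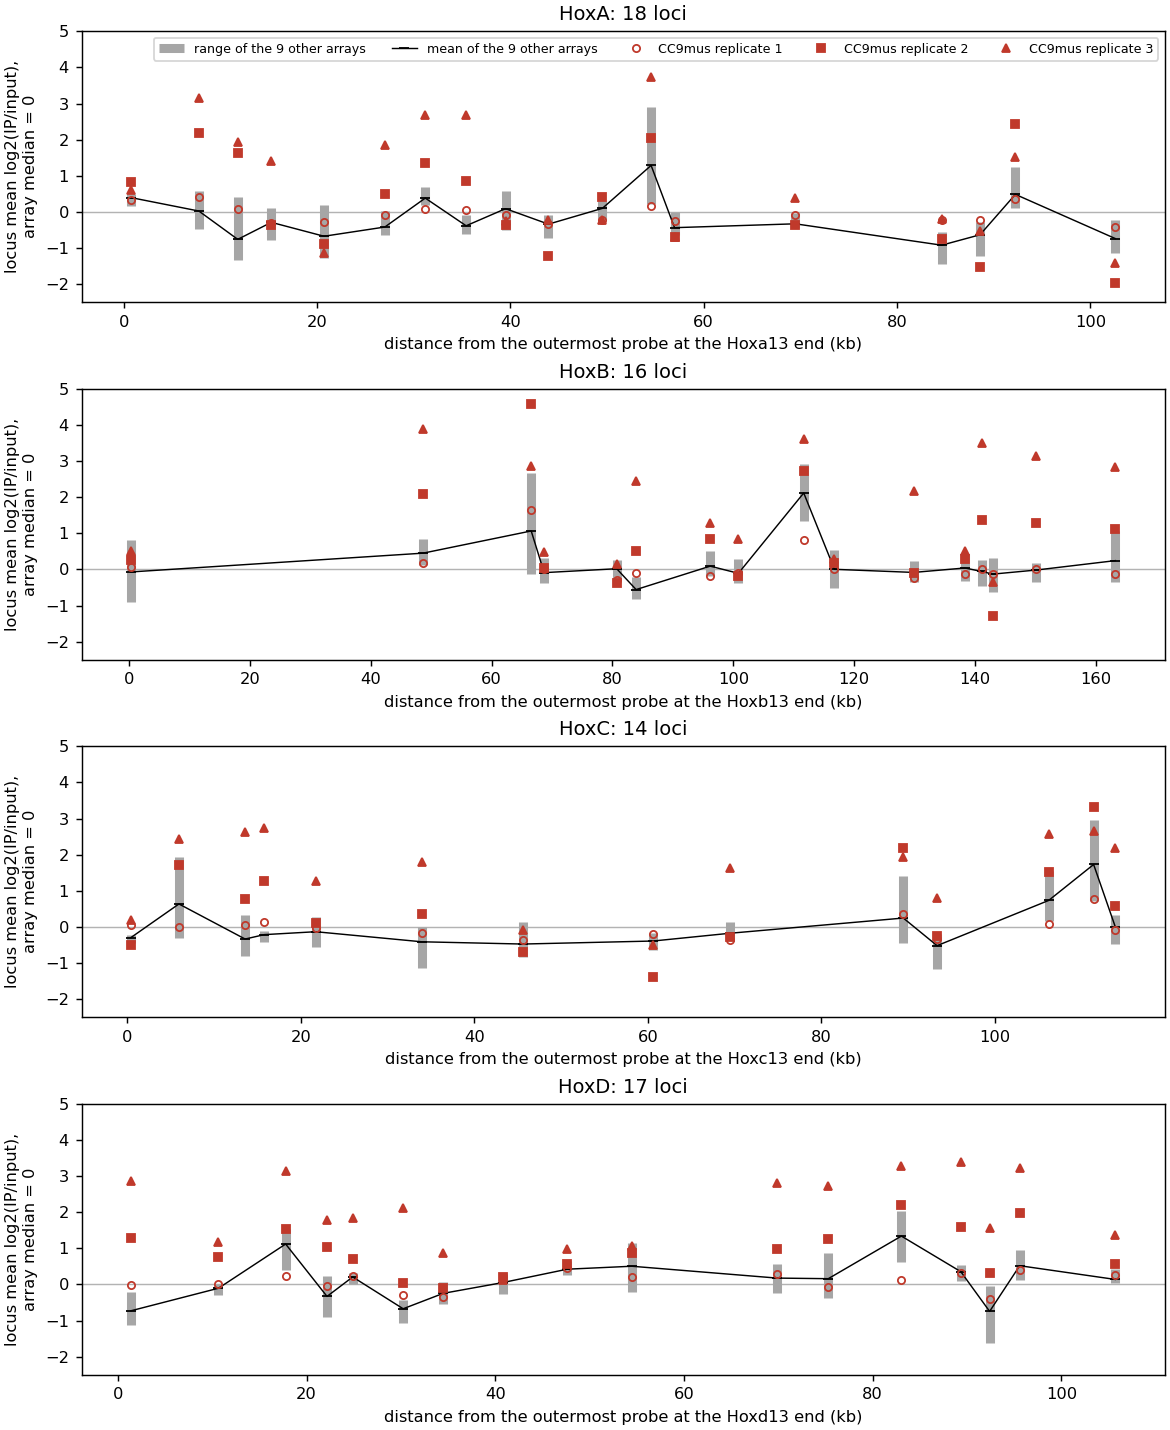
Mean log2(IP/input) of each of the 65 Hox loci against the distance in kb from the outermost probe at the group 13 end of its cluster, as 3 CC9mus arrays (red symbols) and as the range (grey bar) and mean (black) of the 9 arrays of the other lines. Locus 9 of HoxB, with a mean of 2.18 over the 12 arrays, and locus 13 of HoxC, with 1.86, have the highest means, and CC9mus replicates 2 and 3 lie above the grey bars at many loci, such as those at the Hoxa13 and Hoxd13 ends.

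To compare the line with its original mtDNA type with the 3 lines with divergent mtDNA, CC9mus was set against their mean at every probe. Of the 424 Hox probes, 35 were higher in CC9mus (8.25%, against 2.76% of all probes) and 2 were lower (0.472%, against 1.81%) in the limma fit at an adjusted p under 0.05 over all probes, and 171 passed an unadjusted p of 0.05 (40.3%, against 28.9% of all probes). Together they made up 8.73% of the Hox probes, against 4.57% of all probes. The 35 rises were 15 in HoxA, 2 in HoxB, 8 in HoxC and 10 in HoxD, in 17 of the 65 loci, with differences of 1.18 to 3.66 and a median of 2.30 on the log2 scale. All 35 were detected on the 3 CC9mus arrays, and 13 on all 9 other arrays. The remaining 22 were undetected on some of those 9 arrays, and 1 of them on all, so that the level of the divergent lines is bounded from above there. On all 3 CC9mus arrays, 39 Hox probes lay above all 9 other arrays (9.20%, against 3.74% of all probes), and 2 lay below all of them (0.472%, against 3.32%).

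Over the 424 probes, the difference rested on CC9mus replicates 2 and 3. The 35 rises were called from these same values, so that the place of their arrays is no separate support. At all 35, both replicates lay above each of the 9 other arrays, and replicate 1 did so at 22. With a value on all 12 arrays and all 3 CC9mus arrays above the 9 others, 21 were left (4.95% of the Hox probes, against 2.07% of all probes). The median difference over the 424 probes was 0.62 with all arrays, when the median over all probes was −0.06. It was 0.30 on arrays of equal spread and 0.35 with normexp background correction, when that over all probes was −0.04 and −0.02. It was 1.06 without CC9mus replicate 1, 0.66 without replicate 2 and 0.25 without replicate 3, and for replicate 1 alone it was 0.03. In the limma fit, 203 Hox probes were higher and 17 lower without CC9mus replicate 1 (19.8% and 20.6% of all probes). Together these 220 were 51.9% of the Hox probes, against 40.4% of all probes. Without any one of the other 11 arrays 0 Hox probes passed, and 0.0% to 0.14% of all probes did. On arrays of equal spread, 57 were higher and 7 lower (5.67% and 6.39% of all probes), together 15.1% against 12.1%.

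Within the later scan period, which leaves 1 array of each divergent line, the median difference was 0.40 over the Hox probes and −0.19 over all probes, and 0.07 and −0.15 on arrays of equal spread. By cluster, the latter was 0.07 in HoxA, −0.10 in HoxB, −0.03 in HoxC and 0.27 in HoxD, so that the direction turned in HoxB and HoxC. No Hox probe passed the limma fit within the later period or with the scan period as a block, as was true of all probes (0.0% in each). An unadjusted p under 0.05 was reached by 43 Hox probes within the later period (10.1%, against 8.66% of all probes). With the scan period as a block it was reached by 91 (21.5%, against 21.4%). With the scan period as a block on arrays of equal spread, 38 were higher and 39 lower (5.61% and 15.8% of all probes), together 18.2% against 21.4%. With normexp background correction or the slide as a block the count was 0, against 0.027% and 0.0% of all probes. At an unadjusted p under 0.05 there were 132 (31.1%, against 21.1% of all probes) and 164 (38.7%, against 25.3%).

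To place the differences along the clusters, each was divided into 3 segments of equal length. For HoxA, 2 of the 3 segments are given. In the segment next to the Hoxa13 end, 57 of 68 probes had a higher mean in CC9mus (83.8%, against 46.8% of all probes), with a median difference of 0.86. The test was passed by 10 of them, all higher in CC9mus, as by 2.76% of all probes. The probe medians there were −0.03, 0.73 and 1.95 on CC9mus replicates 1, 2 and 3, and −0.33 to 0.20 on the other arrays. In the middle segment, 22 of 40 were higher (55.0%), with a median of 0.09, and 2 passed in each direction (2.76% of all probes higher and 1.81% lower). The contrast between the segments was not itself tested.

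In HoxC and HoxD the outer segments had larger median differences than the middle. HoxC had 0.76 over 35 probes at the Hoxc13 end, 0.25 over 15 in the middle and 0.69 over 30 at the Hoxc4 end, and HoxD had 0.95 over 48, 0.30 over 23 and 1.17 over 35. HoxB was more even, with 0.53 over 10, 0.44 over 51 and 0.61 over 45. The probe medians of the Hoxd13 segment were −0.11, 0.64 and 2.05 on the CC9mus arrays and −0.46 to −0.17 on the others. Those of the Hoxd1 segment were 0.24, 1.48 and 2.59, compared with 0.04 to 0.53. CC9mus replicate 1 was above the range of the others in the first of these and within it in the second.

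Locus 1 of HoxD (chr2:74495650-74497968), at the Hoxd13 end, held the largest number of probes that passed. Of its 11 probes 6 were higher in CC9mus, by 2.15 to 3.19. The mean of the locus was −0.02, 1.30 and 2.87 on the CC9mus arrays and −1.12 to −0.22, with a median of −0.84, on the 9 others, and the groups did not overlap. As a locus, it differed by 2.11 ± 0.47 (SE), with an adjusted p of 0.0514 (limma) over 14579 loci. The probe at chr2:74496094-74496143 had a difference of 3.19 ± 0.60 (SE; adjusted p = 0.0405), with −0.14, 1.11 and 3.45 on the CC9mus arrays and −2.61 to −0.99, median −1.76, on the others. It was detected on 2 of those 9 arrays and on all 3 CC9mus arrays, and with normexp the difference was 1.01. In the next locus, locus 2, the probe at chr2:74505717-74505776 was higher by 2.81 ± 0.56 (adjusted p = 0.0405), with 0.33, 2.77 and 3.61 in CC9mus and −1.54 to −0.05, median −0.45, in the others. It was detected on 7 of those 9 arrays, and with normexp the difference was 1.15.

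**Figure D3:**
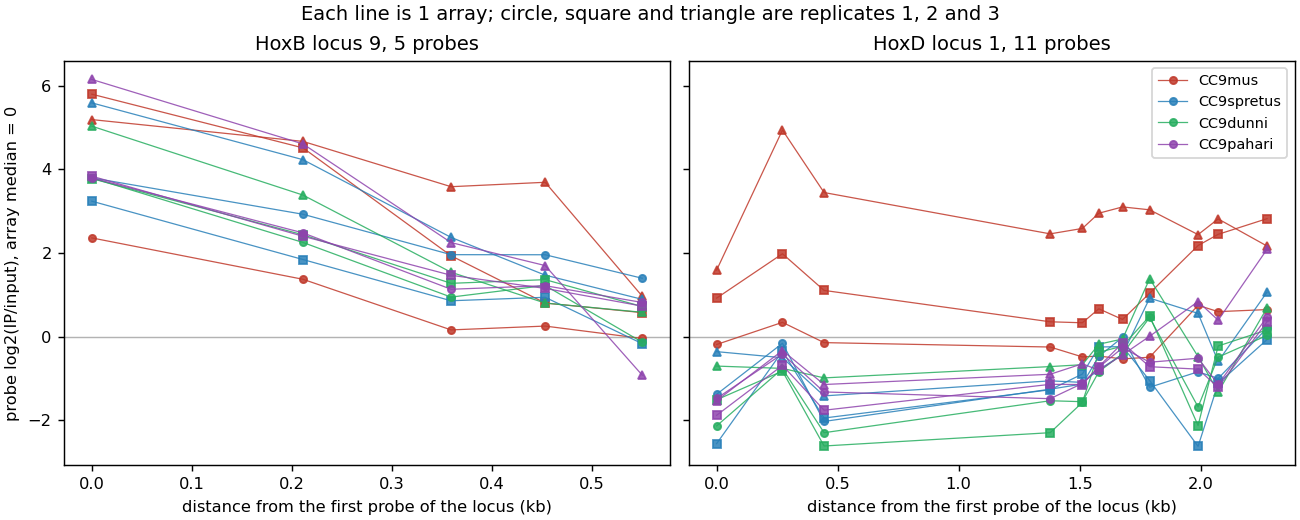
Log2(IP/input) of the 5 probes of locus 9 of HoxB and of the 11 probes of locus 1 of HoxD on each of the 12 arrays, against the distance in kb from the first probe of the locus. In HoxB the lines run together from a mean of 4.37 at the first probe to 0.45 at the fifth, and in HoxD CC9mus replicates 2 and 3 lie above the other lines, with locus means of 1.30 and 2.87.

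In HoxA, 5 of the 13 probes of locus 17 (chr6:52202692-52204226) near the Hoxa13 end were higher in CC9mus, by 1.99 to 3.35. The named one, chr6:52204174-52204226, had 1.88, 5.30 and 2.86 on the CC9mus arrays and −1.10 to 1.41, median −0.14, on the others, a difference of 3.23 ± 0.72 (SE; limma, adjusted p = 0.0425). It was detected on all 12 arrays. The replicate 3 arrays of the divergent lines, scanned later, had 1.08, 1.38 and 1.41, and their replicates 1 and 2 lay between −1.10 and 0.02. The difference was 2.05 within the later period and 2.11 with normexp.

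Locus 16 and locus 13 of HoxA gave the other named rises. The probe at chr6:52199597-52199651 had 0.04, 1.26 and 2.79 in CC9mus and −2.13 to 0.03, median −1.64, in the others (difference 2.47 ± 0.61, adjusted p = 0.0464), and that at chr6:52184400-52184448 had 0.18, −0.20 and 2.18 against −2.81 to −0.30, median −1.46 (2.33 ± 0.59, adjusted p = 0.0475). They were detected on 2 and 3 of the 9 other arrays, and with normexp the differences were 0.72 and 0.58. The gap between the groups was narrow at both: the lowest CC9mus array was next to the highest of the others.

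In HoxC, 8 probes were higher in CC9mus. The probe at chr15:102845760-102845813 in locus 11 had 0.15, 2.16 and 2.68 on the CC9mus arrays and −3.35 to −0.70, median −2.38, on the others, a difference of 3.66 ± 0.65 (SE; limma, adjusted p = 0.0405). It was detected on 3 of the 9 other arrays, 1 in each line, so that the ratio of the rest bounds the level from above, and with normexp the difference was 0.82. Locus 11 as a whole differed by 0.60 ± 0.25 (adjusted p = 0.130), and 2 of its 10 probes passed. In locus 4, chr15:102767902-102767948 was higher by 2.40 ± 0.50 (adjusted p = 0.0405), with 0.38, 1.57 and 3.23 against −1.82 to −0.23, and in locus 14, chr15:102865150-102865209 was higher by 2.24 ± 0.53 (adjusted p = 0.0439), with 0.13, 1.07 and 1.79 against −3.54 to −0.38. They were detected on 4 and 5 of the 9 other arrays, which bounds the level of the rest from above, and with normexp they differed by 0.74 and 0.51.

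In HoxB no probe passed the test with all CC9mus arrays beyond the others (2.07% of all probes did so above and 1.23% below). Of its 106 probes 2 passed, both higher in CC9mus (1.89%, against 2.76% of all probes). The 2 that passed, named here after their values were seen, were chr11:96148176-96148220 in locus 6, with 0.53, 1.29 and 1.64 against −0.69 to 0.54 (difference 1.18 ± 0.29, adjusted p = 0.0469), and chr11:96205315-96205374 in locus 13, with 0.03, 2.54 and 3.27 against −1.68 to 0.41 (2.60 ± 0.63, adjusted p = 0.0450). They were detected on 9 and 4 of the 9 other arrays. At both, CC9mus replicate 1 lay within the range of the other lines.

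Both probes that were lower in CC9mus lay in the middle of HoxA. At chr6:52153690-52153734 in locus 6, the CC9mus arrays had −0.41, −0.59 and −0.81 and the 9 others 0.31 to 1.03, median 0.55. The difference was −1.24 ± 0.23 (SE; limma, adjusted p = 0.0405), the probe was detected on all 12 arrays, and the 3 CC9mus values were close together. The other probe, chr6:52167105-52167149 in locus 9, was named after its values were seen. It had −0.54, −2.74 and −2.99 in CC9mus and −0.55 to 0.26 in the others (−1.88 ± 0.43, adjusted p = 0.0428), and was detected on 1 of the 3 CC9mus arrays.

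**Figure D4:**
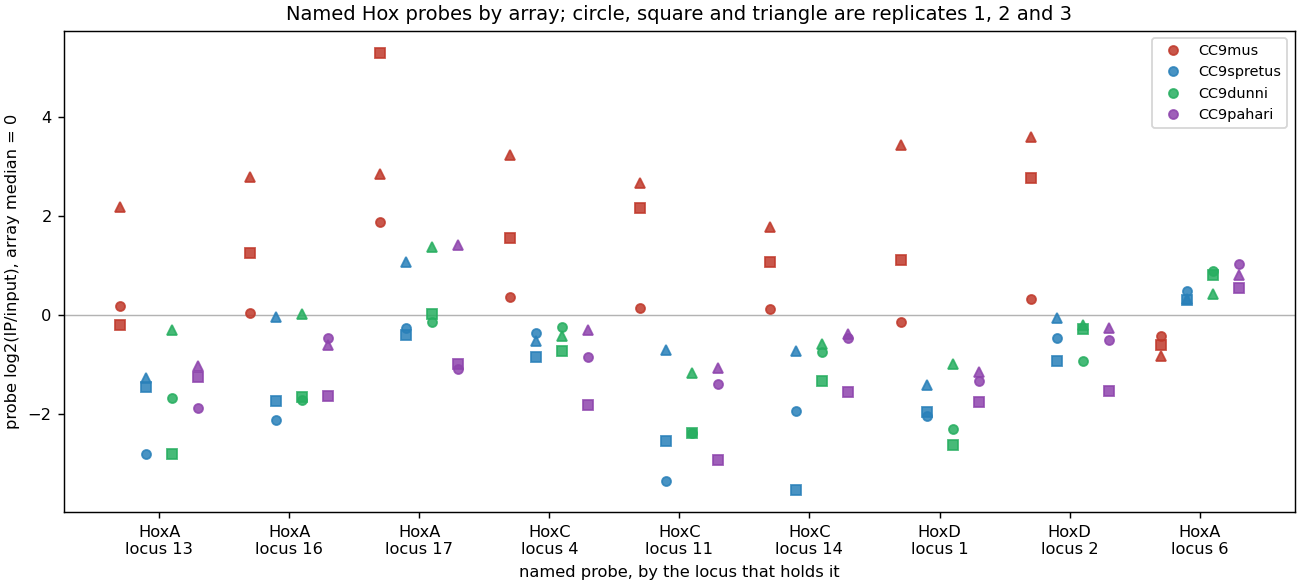
Log2(IP/input) on each of the 12 arrays for the 8 named rises and the named fall of CC9mus against the other lines, by the locus that holds the probe. At each rise the 3 CC9mus arrays (red) lie above the 9 others with replicate 3 or replicate 2 on top, as with 0.33, 2.77 and 3.61 at locus 2 of HoxD, and at locus 6 of HoxA they lie between −0.81 and −0.41, below the others.

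No Hox locus passed the same test on the means over the probes of a locus, as was true of all 14579 loci (0.0%). At an unadjusted p under 0.05, 29 of the 65 Hox loci differed (44.6%, against 32.3% of all loci), and the lowest adjusted p of a Hox locus was 0.0514. The locus mean was higher in CC9mus at 55 of 65 loci (84.6%, against 41.9% of all loci), with a median difference of 0.59 (−0.11 over all loci), and at 17 of 17 in HoxD, 13 of 14 in HoxC, 14 of 16 in HoxB and 11 of 18 in HoxA. All 3 CC9mus arrays lay above the 9 others at 6 loci (9.23%, against 3.61% of all loci) and below them at 0 (3.33% of all loci). Within the later scan period, the locus mean was higher at 44 of 65 (67.7%, against 34.4% of all loci), with a median difference of 0.38 (−0.24 over all loci). On arrays of equal spread, 9 Hox loci passed, all higher in CC9mus (6.57% of all loci were higher and 7.23% lower), among them locus 1 of HoxD (1.46, adjusted p = 0.0164), locus 17 of HoxA (1.13, adjusted p = 0.0246) and locus 4 of HoxC (1.00, adjusted p = 0.0132). Without CC9mus replicate 1, 38 Hox loci were higher and 3 lower (63.1% together, against 50.3% of all loci, 22.6% higher and 27.8% lower). With the scan period as a block on arrays of equal spread, 6 Hox loci were higher and 9 lower (5.94% and 24.0% of all loci).

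Taken singly, none of the divergent lines differed from CC9mus at a Hox probe in limma, as at all 88737 probes (0.0% for each line). An unadjusted p under 0.05 was reached by 119 Hox probes for CC9spretus (28.1%, against 17.1% of all probes), 121 for CC9dunni (28.5%, against 23.4%) and 133 for CC9pahari (31.4%, against 20.7%). Without CC9mus replicate 1, the 3 lines differed at 38.9%, 42.0% and 43.9% of the Hox probes, against 27%, 34.0% and 31.7% of all probes. These comparisons share the CC9mus arrays. The smallest p for CC9spretus was again at chr15:102845760-102845813 (difference −3.86 ± 0.79, adjusted p = 0.202). For CC9dunni it was at chr6:52127106-52127159 in locus 4 of HoxA, with −2.0, −2.01 and −0.75 against 0.10, 1.73 and 1.15 in CC9mus (−2.58 ± 0.49, adjusted p = 0.0972). For CC9pahari it was at chr11:96133436-96133480 in locus 4 of HoxB, with 1.51, 1.41 and 2.21 against −0.14, 0.26 and −0.01 in CC9mus (1.67 ± 0.32, adjusted p = 0.120).

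Among the 3 divergent lines, fitted over their 9 arrays with the scan period in the model, 0 Hox probes differed (limma F test, 0.206% of all probes), and 69 had an unadjusted p under 0.05 (16.3%, against 15.3% of all probes). The smallest p was at chr2:74570711-74570762 in locus 12 of HoxD, with 0.95, 0.84 and 1.31 in CC9dunni, 0.03, −0.29 and 0.43 in CC9spretus and −0.10, −0.40 and −0.01 in CC9pahari (adjusted p = 0.0617). The CC9dunni arrays lay above the other 6 at this probe. In CC9mus it had −0.07, 1.48 and 3.55.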

How the data were processed

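Two-colour MeDIP arrays of 4 mouse ES cell lines, 3 a line, were read from the scanner files that the authors deposited. Per the file headers they were made with Agilent Feature Extraction 11.0.1.1 on an mm9 design, and hold background-subtracted, dye-normalised processed intensity values for each channel and their log10 ratio. Groups came from the labels. Spot values were used without averaging, and outlier spots were left out (8 among the Hox probes). Log2(IP/input) was computed from the processed intensity values. The median of each array was set to 0 with no loess or quantile step, since many probes may carry signal. The deposited log10 ratio was an alternative, and the authors' value table, which is the same, was not used.

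Lines were compared with limma 3.58.1 (R 4.3.3) over all 88737 probes with Benjamini-Hochberg adjustment, and over the means of 14579 loci, which join probes no more than 1000 bp apart. The model had a mean for each line, and that among the divergent lines also the scan period. All tests were two-sided. Probes and loci were named by a rule: per cluster the 3 highest and 3 lowest loci and the highest and lowest probe by mean over the arrays, and up to 3 rises and 3 falls of CC9mus that passed the test with no overlap between the groups, 1 probe a locus, and the smallest p of each other comparison. Some results that this rule covers are not reported here. The clusters, lists and tests were chosen with earlier results of these data known. Fits were tested on simulated data. Figures were drawn with matplotlib 3.10.9, and the other steps used scipy 1.17.1, pandas 2.3.3 and numpy 2.4.6 in Python 3.11.15.

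Alternatives were no centring, normexp background correction with an offset of 50, arrays of equal spread, only bright input, blocks for replicate number, slide or scan period, other gaps between loci, stricter thresholds and each array left out. There were 8 slides and 5 scan days, and each scan period had 6 arrays. The number of arrays limits the precision. The labels call the arrays of a line replicates and do not say that they came from separate cultures, so that p-values measure the spread between these arrays, which may be technical. Neighbouring probes share fragments and are not replicates, and 416 probes without a position were in no locus.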

Additional observations from a re-analysis of the deposited data

How the results depend on the processing

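The comparison of CC9mus with the other lines depended on the processing. Of 37 Hox probes that passed, the count was 0 with normexp, with a block for slide or for scan period and within the later scan period (chosen after seeing the data), 64 on arrays of equal spread and 77 with the scan period as a block on arrays of equal spread. Leaving out 1 array gave 0 to 220, with 220 only without CC9mus replicate 1. For the loci, of which 0 passed, 10 passed with no centring (15.4%, against 7.89% of all loci), 9 at equal spread (13.8%, against 13.8%) and 4 with bright input (6.15%, against 4.97%), all higher in CC9mus, 15 with the scan period as a block on arrays of equal spread (6 higher and 9 lower, 23.1%, against 30.0% of all loci) and 0 to 41 with an array left out, 41 without CC9mus replicate 1. For single lines against CC9mus, with 0 at first, equal spread gave 1 for CC9spretus, 39 for CC9dunni and 17 for CC9pahari (0.236%, 9.20% and 4.01%, against 0.178%, 9.16% and 3.95% of all probes), the scan period as a block on top of it gave 21, 65 and 50 (4.95%, 15.3% and 11.8%, against 7.86%, 19.5% and 14.6%), and leaving out an array gave 0 to 165, 0 to 178 and 0 to 186, the higher count without CC9mus replicate 1 in each. Among the divergent lines 1 probe passed with bright input (0.236%, against 0.848% of all probes), 1 with no centring (0.236%, against 0.487%, chosen after seeing the data) and 0 with any array left out. The cause of these changes was not tested.

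With the replicate number as a block, 74 Hox probes (71 higher and 3 lower, 17.5%, against 8.42% of all probes) and 11 loci (16.9%, against 7.95%) passed for CC9mus against the others and 14 probes for CC9dunni (3.3%, against 1.18%), and no other count of calls moved by so much. The labels do not say that the numbers pair arrays. Over 18 pairs of arrays with the same number, deviations from the line means correlated at −0.38 to 0.54, with 12 above 0.1, and 5 of 12 arrays correlated best with their own number.

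The 37 probes with a line mean above 2 became 20 with no centring (4.72%, against 8.74% of all probes), 4 with normexp (0.943%, against 3.44%), 17 at equal spread (4.01%, against 7.65%), 4 when all 3 arrays had to pass (0.943%, against 4.81%), 0 with a mean Z-score beyond 5 in addition (0.168% of all probes), and with an array left out 14 without CC9mus replicate 3 (3.3%, against 7.55%) to 117 without CC9mus replicate 1 (27.6%, against 18.1%). The 10 below −2 became 18 with no centring (4.25%, against 7.09%), 2 with normexp (0.472%, against 0.944%), 0 when all 3 arrays had to pass (0.0372%), 0 with the Z-score (0.0%), and 7 to 23 with an array left out, 23 without CC9mus replicate 1 (5.42%, against 11.6%), 18 without CC9spretus replicate 3 (4.25%, against 6.24%) and 22 without CC9dunni replicate 3 (5.19%, against 6.11%).

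Cluster medians without centring were −0.30 in HoxA, −0.10 in HoxB, −0.26 in HoxC and 0.0079 in HoxD for CC9dunni, and −0.22 in HoxB and −0.23 in HoxD for CC9pahari. With normexp they were −0.043 in HoxA and 0.054 in HoxC for CC9dunni, and −0.066 in HoxA, 0.050 in HoxB and 0.0054 in HoxD for CC9pahari. With 1 array left out, CC9mus ranged from 0.21 to 0.84 in HoxA, 0.31 to 1.04 in HoxB, 0.36 to 1.30 in HoxC and 0.57 to 1.53 in HoxD. The differences of the 8 named rises, the named fall and the probes with the smallest p for a single line kept their sign under every alternative run, but with normexp the rises were 0.51 to 2.11, in another order. At the highest and lowest probe of a cluster, none of which passed, the sign could change, as from 0.11 to −1.28 at equal spread at chr11:96175762-96175817 and from 0.56 to −0.12 with normexp at chr2:74520271-74520324. Small levels changed too: normexp turned the sign of the HoxC median of CC9dunni, of the HoxB and HoxD medians of CC9pahari and of the means of locus 8 of HoxB (to 0.040) and locus 1 of HoxD (to 0.034), no centring that of the HoxB median of CC9dunni, and bright input that of locus 8 of HoxB (to 0.15). In CC9spretus the HoxB median was −0.0080 with no centring and −0.058 with normexp and the HoxD median −0.081 with no centring, both within the spread between arrays, and leaving out 1 array also turned the sign of the HoxB medians of CC9spretus and CC9dunni and of the HoxD median of CC9spretus. In all, 230 counts and medians moved within the limits set and 62 beyond.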
